A study of Mus musculus with 8 samples.

Results

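Rearrangements of mitochondrial DNA (mtDNA) were listed in the brains of mice lacking MGME1 (Mgme1-/-) and of wild-type mice (Mgme1+/+). The members are all brain libraries of the series, 4 of 8 libraries, chosen by tissue and genotype in the sample labels, and all of their entries were used, 58 of 72. Each genotype comprised 1 male and 1 female on the inbred C57BL/6N background, aged 23 to 25 weeks, and every brain library was made from total DNA of 1 mouse. The Mgme1+/+ male and female had 5 and 7 entries, and the Mgme1-/- male and female had 17 and 29. The files hold no measure of the Mgme1 gene itself, so the genotype labels were not checked against it.

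The mtDNA is a circle that is copied from origins on each strand. Synthesis of the heavy strand starts in the non-coding region (NCR) close to the conserved sequence blocks (CSB), and many new strands stop again at the other end of the NCR, at the extended termination associated sequences (ETAS). Synthesis of the light strand starts at an origin (OL) in a cluster of tRNA genes. MGME1 is a mitochondrial exonuclease that removes single-stranded DNA flaps, which arise when a round of copying meets its own beginning.

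An entry of the lists is a junction between positions that are apart in the reference mtDNA of 16299 bp (GRCm38). It is listed either as a deletion of the segment between them or as a tandem duplication of it, although a read across the junction cannot tell the duplication of an arc from the deletion of the other arc. Each entry has a number of supporting reads, which cross the junction, and of reference reads, which cross the breakpoints without it. Their sum is called the depth here, and the supporting reads as a percentage of it are the heteroplasmy. Intervals of single heteroplasmies are 95% Wilson intervals, which cover counting error only.

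The junctions that recur in both Mgme1-/- brains are shown first. Each line joins the end of a segment to its start, on the plus strand of the reference (GRCm38), and the capitals mark the bases that the reference has at both breakpoints. The sides of the joins lie at chrM:16018-16054 and chrM:15389-15425 for the duplication from tRNA-Pro to the NCR of 629 bp, at chrM:16047-16083 and chrM:15354-15390 for that of 693 bp, at chrM:15565-15605 and chrM:15453-15493 for the duplication inside the NCR, at chrM:14535-14568 and chrM:14424-14457 for the one in the exon of CYTB, and at chrM:14008-14052 and chrM:13455-13499 for the one from ND5 to ND6.
tRNA-Pro to NCR, 629 bp: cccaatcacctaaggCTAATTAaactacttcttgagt
tRNA-Pro to NCR, 693 bp: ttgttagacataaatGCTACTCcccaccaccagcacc
inside the NCR, 112 bp: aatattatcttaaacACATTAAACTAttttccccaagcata
CYTB, 111 bp: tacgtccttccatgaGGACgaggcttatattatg
ND5 to ND6, 553 bp: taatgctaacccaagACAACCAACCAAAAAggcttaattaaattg

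The segment from ND5 to ND6 was also listed as a deletion, and its join then has the same capitals between the outer flanks, from chrM:13455-13499 to chrM:14008-14052. The deletion from 12710 to 13108 in ND5 is the other event found in both genotypes, with its sides at chrM:12695-12734 and chrM:13094-13133. The duplication from 14935 in CYTB to 16094 in CSB2 joins chrM:16080-16118 to chrM:14920-14958 and was listed in the female Mgme1-/- brain.
deletion ND5 to ND6, 553 bp: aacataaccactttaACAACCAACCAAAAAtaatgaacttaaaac
deletion in ND5, 399 bp: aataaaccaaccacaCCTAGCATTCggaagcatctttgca
CYTB to CSB2, 1160 bp: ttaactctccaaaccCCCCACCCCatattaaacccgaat

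Duplications made up most entries of the Mgme1-/- brains and a minority of those of the Mgme1+/+ brains. The Mgme1+/+ male and female had 2 and 3 duplications, and the Mgme1-/- male and female had 16 and 25. The groups did not overlap, and the difference in means, 18, exceeded the SDs of 0.707 and 6.36 (n = 2 each; exact 2-sided permutation test, p = 0.333). With 2 libraries against 2 this is the smallest p the exact test allows, so no comparison can pass 0.05 in this test. Of 12 comparisons made, 8 had this p, and their value after Benjamini-Hochberg adjustment of the exact p was 0.500.

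Supporting reads were set against depth to take account of the different libraries. The duplications had 4.34 and 6.93 supporting reads per 10000 reads of median depth in the Mgme1+/+ male and female, and 64.0 and 77.6 in the Mgme1-/- male and female. The means were 5.64 ± 1.83 and 70.8 ± 9.62 (SD, n = 2 each; exact permutation test, p = 0.333). Median depth at the events was 9210 and 8660 reads in the Mgme1+/+ male and female, and 7035 and 10442 in the Mgme1-/- male and female. These medians are over the entries of each library, which differ in number and position. The Mgme1-/- male had the lowest median depth of the 4 libraries and 16 duplications, and the Mgme1-/- female had the highest and 25. Whether the number of duplications depends on depth was not tested. The floor, 3 reads as a percentage of the median depth, was 0.0326% and 0.0346% in the Mgme1+/+ male and female, and 0.0426% and 0.0287% in the Mgme1-/- male and female.

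**Figure D1:**
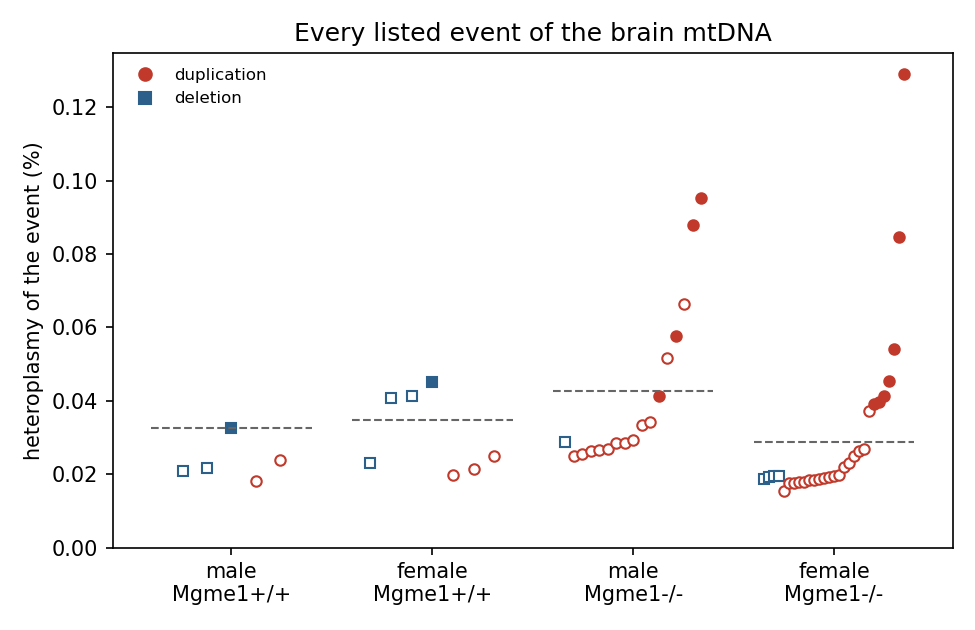
Heteroplasmy (%) of every listed event in the 4 brain libraries, with circles for duplications, squares for deletions, filled symbols for 3 or more supporting reads, open symbols for 2 reads, and a dashed line at the floor of each library. All duplications of the Mgme1+/+ brains are open symbols under the floor, whereas 4 and 7 duplications of the Mgme1-/- male and female are filled. The floor stands for 3 reads at the median depth, so an entry of 2 reads lies under it unless its depth is low.

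Most entries rest on 2 reads. In the Mgme1-/- brains 12 of 16 duplications in the male and 18 of 25 in the female had 2 reads, and in the Mgme1+/+ brains all duplications did. With at least 3 supporting reads the duplications numbered 0 and 0 in the Mgme1+/+ brains and 4 and 7 in the Mgme1-/- male and female, and the difference in means went from 18 to 5.50.

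The end of the circle that holds the NCR and tRNA-Pro had 9 duplications with an end in it in each Mgme1-/- brain, against 0 and 1 in the Mgme1+/+ male and female (exact permutation test, p = 0.333). Their heteroplasmies summed to 0.317% and 0.348% in the Mgme1-/- male and female, and 0% and 0.0215% in the Mgme1+/+ male and female (exact permutation test, p = 0.333). With at least 3 reads 2 and 4 of these duplications were left in the Mgme1-/- male and female, with 0.129% and 0.253%, and at or above the largest floor 1 and 2, with 0.0879% and 0.174%; none was left in the Mgme1+/+ brains. The difference in summed heteroplasmy went from 0.322% to 0.191% and 0.131% in these settings, and to 0.121% with the whole segment inside the NCR. The event of the female Mgme1+/+ brain, from 218 in the 12S rRNA gene to 16094, is listed as a duplication of 15877 bp and skips 422 bp, so by the shorter arc it is a deletion and the count of that brain is 0.

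Between tRNA-Thr and the end of the NCR, a stretch of 1011 bp, the Mgme1-/- male and female had 18.8 and 15.8 duplication ends per kb. The same stretch had 0 and 0.989 ends per kb in the Mgme1+/+ male and female. In CYTB both Mgme1+/+ brains had 0 ends per kb. The Mgme1-/- brains differed from each other there, with 2.62 ends per kb in the male and 12.2 in the female. Their duplications with both ends in CYTB had a summed heteroplasmy of 0.0954% and 0.110%, and 1 and 0 of these had 3 or more reads. From tRNA-Phe to tRNA-Leu2, which is most of the circle, there were 0.681 and 1.11 ends per kb in the Mgme1-/- male and female and 0.341 and 0.256 in the Mgme1+/+ male and female. In ND5, ND6 and tRNA-Glu the groups met, with 0.832 and 2.91 ends per kb in the Mgme1-/- male and female and 0 and 0.832 in the Mgme1+/+ male and female. These densities are a description and were not tested.

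**Figure D2:**
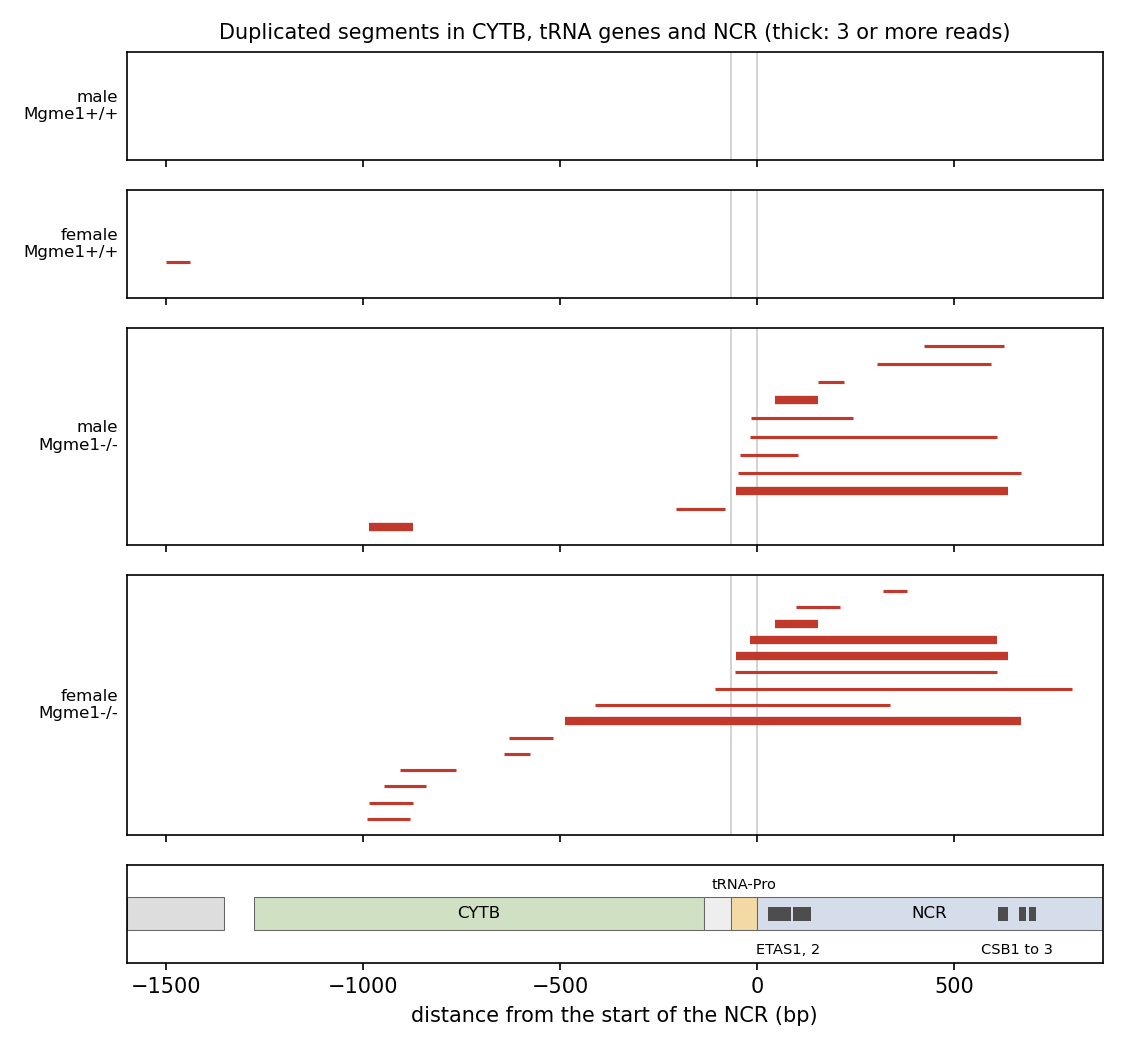
Duplicated segments near the NCR in each brain, against the distance from the start of the NCR (bp), with thick bars for 3 or more supporting reads and a track of CYTB, tRNA-Pro, the NCR and, as dark boxes, the ETAS and CSB elements. The panel of the male Mgme1+/+ brain is empty and that of the female holds 1 segment in ND6 (grey in the track), while the segments of the male Mgme1-/- brain lie mostly in tRNA-Pro and the NCR and those of the female also in CYTB; segments of several kb are not drawn.

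The tRNA-Pro gene, next to the NCR, was the starting point of some of the 16 and 25 duplications of the Mgme1-/- male and female. The Mgme1-/- male had 5 duplications starting in it and ending in the NCR, the Mgme1-/- female had 3 and each Mgme1+/+ brain had 0. They had 11 and 22 supporting reads and a summed heteroplasmy of 0.150% and 0.192% in the male and female. In each Mgme1-/- brain 3 of them were longer than 600 bp and span nearly from tRNA-Pro to the CSB elements. Their ends in the NCR lay at 16031, 16032 and 16061, at 4, 3 and 3 bp from CSB1, or at 16094 inside CSB2.

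The duplication of 629 bp from 15404 to 16032 had 15 of 11621 reads in the female (0.129%, 0.0782 to 0.213) and 2 of 7495 reads in the male (0.0267%, 0.00732 to 0.0973), a ratio of 4.83 with overlapping intervals that was not tested. The duplication of 693 bp from 15369 to 16061 had 0.0414% in the male and 0.0453% in the female, a ratio of 1.09. In the male a further duplication ran from 15375 to 16094 (0.0293%, 2 reads).

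Inside the NCR, the duplication of 112 bp from 15468 in ETAS1 to 15579 had 7 of 7963 reads in the male (0.0879%) and 5 of 12605 in the female (0.0397%). Its end lies 21 bp past ETAS2, and a further duplication of the male, from 15579 to 15645, starts at the same base. An end in ETAS2 was found in the male for 15379 to 15528 (0.0255%) and in the female for 15523 to 15633 (0.0155%), with 2 reads each. CSB1 held an end of the segment from 15848 to 16051 in the male (0.0285%, 2 reads). The most duplicated segments over a base were 6 in the male, from 15468 to 15528 and at 15579, and 9 in the female, from 15523 to 15579. The 9 include the segment of 7661 bp, which crosses base 1. In the Mgme1+/+ male and female the most were 1 and 2, and the 2 include the entry of 15877 bp.

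Away from the NCR and tRNA-Pro the duplications were also more numerous in the Mgme1-/- brains. Those with both ends elsewhere numbered 7 and 16 in the Mgme1-/- male and female and 2 in each Mgme1+/+ brain (exact permutation test, p = 0.333). Together these had a heteroplasmy of 0.367% and 0.466% in the Mgme1-/- male and female, against 0.0421% and 0.0449% in the Mgme1+/+ male and female (exact permutation test, p = 0.333). Without the female Mgme1-/- brain the difference in number went from 9.50 to 5. With at least 3 reads, 2 and 3 of these duplications were left in the Mgme1-/- male and female, with 0.153% and 0.180%. At or above the largest floor 4 and 2 were left, with 0.271% and 0.139%. In both settings 0 were left in each Mgme1+/+ brain. The 4 of the male include the entries from 8782 to 8901 (0.0516%) and from 9748 to 9888 (0.0664%). These rest on 2 reads each, at depths of 3879 and 3010.

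CYTB is the mtDNA gene for a subunit of complex III. The duplication of 111 bp in it, from 14439 to 14549, had 7 of 7339 reads in the male Mgme1-/- brain (0.0954%, 0.0462 to 0.197) and 2 of 11132 in the female (0.0180%, 0.00493 to 0.0655), a ratio of 5.30. In the female it overlaps duplications from 14432 to 14541, from 14476 to 14584 and from 14516 to 14659, each with 2 reads. The duplication from 14935 in CYTB to 16094 in CSB2 measured 1160 bp and had 4 of 10268 reads (0.0390%). ND1, a subunit of complex I, held duplications of the female from 3172 to 3262 (3 reads, 0.0414%) and from 3283 to 3346 (4 reads, 0.0542%).

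Both Mgme1-/- brains listed a duplication and a deletion with the same ends, 13470 in ND5 and 14022 in ND6, as separate entries with their own supporting reads. The duplication had 4 reads and the deletion 2 in the male, and the duplication had 9 and the deletion 2 in the female. The reference reads were the same number for both entries, 6936 in the male and 10626 in the female. In the female Mgme1+/+ brain the deletion was listed with 4 of 8854 reads (0.0452%) and no duplication was listed. The deletion was also listed in both male hearts of the series.

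The duplications with the same ends in both Mgme1-/- brains are 5 of 16 in the male and 5 of 25 in the female. They carried 45.1% of the summed duplication heteroplasmy of the male and 38.9% of that of the female. In the Mgme1+/+ brains 1 duplication was common to both, of 86 bp (1205 to 1290) within 16S rRNA, at 0.0182% in the male and 0.0199% in the female with 2 reads each. Of 49 distinct events in all brains 2 were listed in both genotypes, and both are deletions. Of the 40 distinct duplications 0 were. The Mgme1+/+ brains had only 4 distinct duplications, all with 2 reads, and the Mgme1-/- brains had 36, of which 5 were in both mice. Base 1290 also ends a duplication that starts at 1223 in the Mgme1-/- female, base 9021 in COX3 ends a deletion of the female Mgme1+/+ brain and a duplication of the female Mgme1-/- brain, and base 16094 ends duplications of 3 brains. Of the distinct Mgme1+/+ events, 3 of 7 deletions and 1 of 4 duplications were also listed in a heart of the series. Of the distinct Mgme1-/- events, 2 of 4 deletions and 1 of 36 duplications were. These 2 deletions are among the 3 of the Mgme1+/+ brains. The hearts differ from the brains in tissue and age, and this overlap was not tested.

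The other duplications of the Mgme1+/+ brains, with 2 reads each, ran from 5685 to 5741 in COX1 in the male (0.0239%) and from 13923 to 13985 in ND6 in the female (0.0250%).

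Deletions numbered 3 and 4 in the Mgme1+/+ male and female and 1 and 4 in the Mgme1-/- male and female (exact permutation test, p = 1). Summed over deletions, heteroplasmy was 0.0752% and 0.151% in the Mgme1+/+ male and female, and 0.0288% and 0.0769% in the Mgme1-/- male and female (exact permutation test, p = 0.667). The groups overlapped in both measures. Between mice of the same sex the summed heteroplasmy differed by -0.0464% in the males and -0.0736% in the females (Mgme1-/- minus Mgme1+/+), and the number by -2 and 0. The difference in number, -1 with all mice, was 0.500 without the male Mgme1-/- brain, -0.500 without the female Mgme1+/+ brain and -2.50 without the female Mgme1-/- brain. That in summed heteroplasmy, -0.0600%, was -0.0977% and -0.0360% without the male Mgme1+/+ and male Mgme1-/- brain and -0.0224% without the female Mgme1+/+ brain. By the listed type no deletion had an end in the NCR or tRNA-Pro. By the shorter arc the entry from 218 to 16094 of the female Mgme1+/+ brain would be one. With 3 or more reads, 1 deletion was left in each Mgme1+/+ brain, with 0.0326% in the male and 0.0452% in the female, and 0 in each Mgme1-/- brain. At or above the largest floor, 1 deletion of the female Mgme1+/+ brain was left and 0 in the other brains, so the groups overlapped there, and the difference in summed heteroplasmy was -0.0226%.

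The deletions of the male Mgme1+/+ brain lay in ND5 from 12710 to 13108 (0.0326%, 3 reads) and from 12865 to 13116 (0.0208%, 2 reads), and in CYTB from 14603 to 14940 (0.0218%, 2 reads). Besides the one from ND5 to ND6, the female Mgme1+/+ brain had deletions from 4243 to 4805 in ND2 (0.0231%), from 8255 in ATP6 to 8661 in COX3 (0.0413%) and from 8689 to 9021 in COX3 (0.0409%), with 2 reads each. The deletion from 12710 to 13108 was also listed in the female Mgme1-/- brain (0.0195%, 2 reads) and in both male hearts of the series.

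Of 46 entries of the Mgme1-/- brains, 26 are neither named by 3 reads, by both mice or both genotypes, nor by an end in ETAS or CSB; some of the 26 also appear above. They include 4 duplications from tRNA-Phe to tRNA-Leu2 in each mouse, of 85 to 150 bp and 0.0334% to 0.0664% in the male and of 63 to 80 bp and 0.0251% to 0.0373% in the female. In CYTB they include 5 duplications of the female, among them the 3 overlapping ones given above, of 67 to 144 bp and 0.0176% to 0.0189%, and in ND5 there are 2 of 132 and 136 bp. Between tRNA-Thr and the end of the NCR they include 3 of each mouse, of 67 to 291 bp in the male and of 62 to 906 bp in the female, among them starts in tRNA-Pro counted above. Duplications with ends in different regions numbered 1 in the male (126 bp) and 2 in the female, where 1 is listed with 7661 bp and its other arc of 8638 bp holds OL. Deletions of 417 bp in ND5 and 480 bp in CYTB complete the list of the female.

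Median duplication size was 71.5 and 86 bp in the Mgme1+/+ male and female and 150 and 112 bp in the Mgme1-/- male and female (exact permutation test, p = 0.333). The difference went from 52.3 to 33.3 bp without the male Mgme1-/- brain. With at least 3 supporting reads the median was 332.5 and 553 bp in the Mgme1-/- male and female, and at or above the largest floor it was 120 and 591 bp; no Mgme1+/+ duplication was left in either setting. Of 36 distinct duplications of the Mgme1-/- brains, 24 measured up to 150 bp. The median was 291 bp for the 15 with an end in the NCR or tRNA-Pro and 111 bp for the 21 with both ends elsewhere. The 7 distinct deletions of the Mgme1+/+ brains measured 252 to 563 bp and the 4 of the Mgme1-/- brains 399 to 553 bp.

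Short direct repeats are stretches present at both breakpoints. They are described by kind of event, as deposited unless the reference is named, and the kinds were not tested against each other. The deposited repeat had the length of the identical bases at the join in 45 of 58 entries and the same bases in 43. Single lengths can thus differ from the reference. Every distinct deletion, by the listed type, had a deposited repeat of at least 7 bp. The median was 8 bp over the 7 of the Mgme1+/+ brains and 11 bp over the 4 of the Mgme1-/- brains. The Mgme1+/+ entry from 218 to 16094, a deletion by the shorter arc, had a repeat of 2 bp. Among the 36 distinct duplications of the Mgme1-/- brains, 12 had a repeat of at least 7 bp and 3 had none. The median repeat at duplications was 7.5 and 4 bp in the Mgme1+/+ male and female and 4 and 6 bp in the Mgme1-/- male and female, so the groups overlapped (exact permutation test, p = 1). Its difference turned from -0.750 bp to 1 bp without the male Mgme1+/+ brain. It turned to 0.250 bp without the male Mgme1-/- brain or with repeats taken from the reference. The difference was -2.50 bp and -1.75 bp without the female Mgme1+/+ and female Mgme1-/- brain, and -1.25 bp by the shorter arc.

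Of 11 duplication entries of the Mgme1-/- brains with 3 or more reads 9 had a repeat of at least 7 bp, with a median of 7 bp, against 7 of 30 entries with 2 reads, with a median of 4 bp. At or above the largest floor the median repeat at duplications was 4 and 7 bp in the Mgme1-/- male and female, against 9 and 7 bp with at least 3 reads. The split by reads was chosen after the values were seen, entries shared by both mice count for each, and the difference was not tested. The longest repeats at duplications were acaaccaaccaaaa, 14 bp as deposited and 15 bp in the reference, at the segment from ND5 to ND6, and acattaaacta, 11 bp, at the duplication from ETAS1. The 629 bp and 693 bp duplications had 7 bp each, ctaatta and gctactc, and the recurring duplication in CYTB had ggac. At the deletion from 12710 to 13108 the repeat was cctagcattc.

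**Figure D3:**
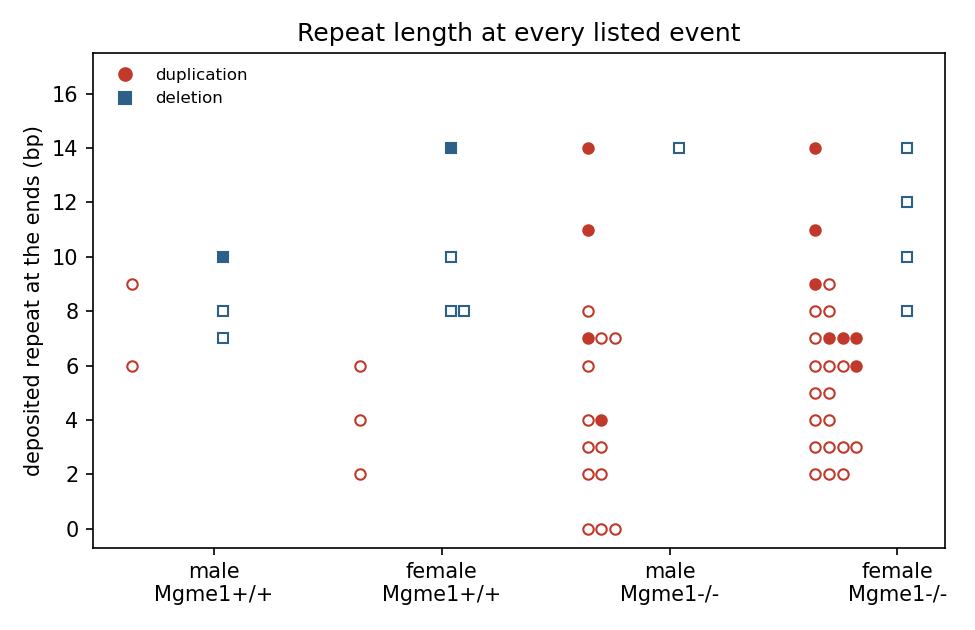
Length of the deposited repeat (bp) at every listed event by library, with circles for duplications, squares for deletions and filled symbols for 3 or more supporting reads. All deletions lie at 7 bp or above, while duplications of the Mgme1-/- brains range from 0 to 14 bp and most of their filled symbols lie at 7 bp or above.

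Depth varied around the circle. Where both ends lay between tRNA-Phe and OL, median depth was 10989 and 9359 reads in the Mgme1+/+ male and female and 5856 and 7427 in the Mgme1-/- male and female. Where both ends lay in ND5, ND6 or CYTB, it was 9210 and 8420 reads in the Mgme1+/+ male and female and 6940 and 10616 in the Mgme1-/- male and female. The ratio of the first to the second was 1.19 and 1.11 in the Mgme1+/+ male and female and 0.844 and 0.70 in the Mgme1-/- male and female, so it lay above 1 in both Mgme1+/+ brains and under 1 in both Mgme1-/- brains. The ratio was chosen after the depths had been seen and was therefore not tested. It rests on 1 event between tRNA-Phe and OL in each male, 2 in the female Mgme1+/+ brain and 5 in the female Mgme1-/- brain. In the female Mgme1+/+ brain the lowest depth there, 8660 reads, was under the highest in ND5, ND6 or CYTB, 8854 reads. The depths of these stretches thus overlapped in that brain and did not in the other brains.

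Events from ATP6 to ND4L had low depth in the 3 brains with such events, at 0.575 and 0.581 times the ND5 to CYTB median in the female Mgme1+/+ brain, 0.559 and 0.434 times in the male Mgme1-/- brain and 0.505 times in the female Mgme1-/- brain. Low depth raises the heteroplasmy that 2 reads make, and the highest values from 2 reads, 0.0516% and 0.0664% in the male Mgme1-/- brain, come from this stretch.

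**Figure D4:**
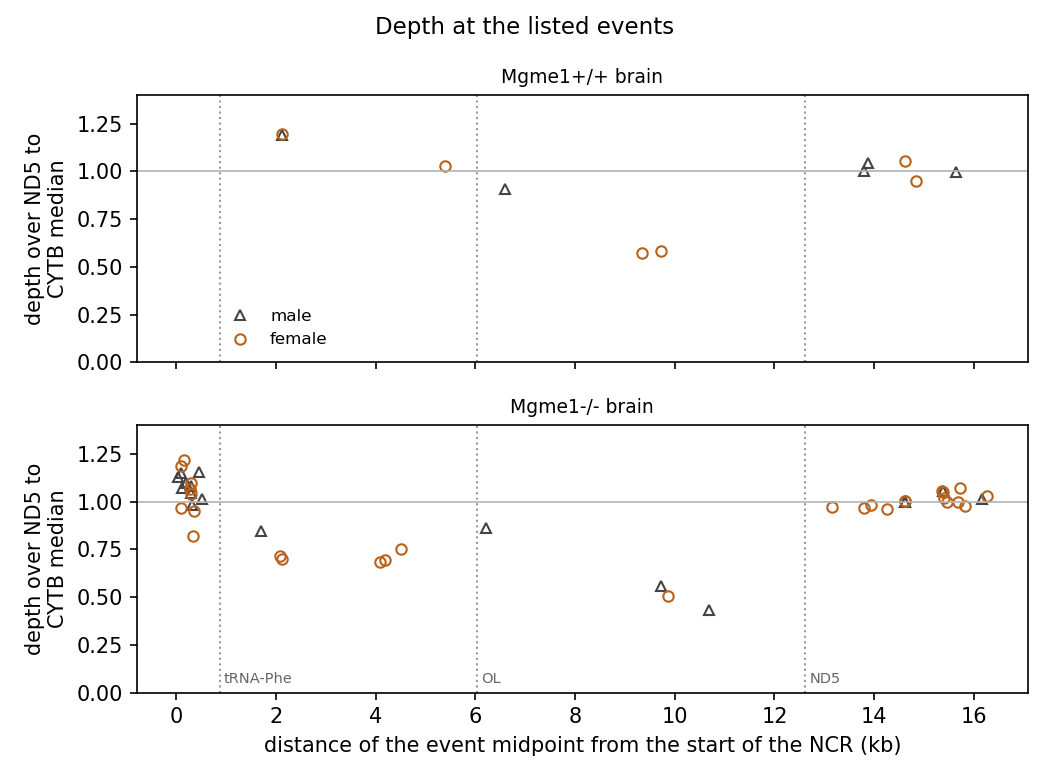
Depth at each listed event as a multiple of the median depth of the ND5 to CYTB events of its library, against the distance of the event midpoint from the start of the NCR (kb), with triangles for males and circles for females; dotted lines mark tRNA-Phe, OL and ND5, and events spanning several kb are not drawn. Between tRNA-Phe and OL the points of the Mgme1+/+ brains lie above 1 and those of the Mgme1-/- brains below 1.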

How the data were processed

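The authors prepared TruSeq libraries from total brain DNA, aligned reads directly to the mouse mtDNA (GRCm38), so reads from nuclear copies could align there too, and obtained events with MitoSAlt, whose version and cut-offs are not given in the sources used here. The deposited lists give supporting and reference reads as counts, without normalization, and heteroplasmy as a percent. The percent equalled the read counts at 4 decimals in 58 of 58 entries. The deposited repeat had the length of the identical bases at the join in 45 of 58 entries, and the same bases in 43.

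Genes and sequences come from RefSeq (GRCm38). An exact permutation test, 2-sided, compared the genotype means, and p-values were adjusted by Benjamini-Hochberg over 12 comparisons. Members, lists and regions were chosen with earlier results of these data known. Named singly were all Mgme1+/+ events and, in Mgme1-/- brains, events with at least 3 reads, in both mice or genotypes, or with an end in ETAS, CSB or OL; others named for a shared base, an overlap or their depth were picked after the values were seen. Alternatives were 3 reads, the largest floor, the shorter arc, merging within 10 bp, other NCR definitions, recomputed heteroplasmy, depth at duplications, pairs of the same sex and leaving out each mouse. The depth ratio and repeats taken from the reference were added after the data were seen. Region and test functions were tested on simulated data. Scripts ran in Python 3.11.15 with SciPy 1.17.1, NumPy 2.4.6 and, for figures, matplotlib 3.10.9.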

Additional observations from a re-analysis of the deposited data

Results flagged for a closer look

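The median repeat at duplications moved in opposite directions in the sexes. Between the Mgme1-/- and Mgme1+/+ brains it differed by -3.50 bp in the males and by 2 bp in the females. Median depth at the events did so too, with -2175 reads in the males and 1782 reads in the females. Each sex has 1 mouse per genotype, and the difference between the sexes was not tested.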

How the results depend on the processing

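Of 121 alternative values, 115 kept the direction of the difference and 40 moved it by over 1.5 times. Some of the 121 could not change the direction. Pairs of the same sex equal the main value, and recomputed heteroplasmy differs from it by rounding only. With 3 reads or at the largest floor no Mgme1+/+ duplication was left, so the duplication differences could not turn negative. In the exact permutation test no comparison can pass 0.05 with 2 libraries against 2, so none lost or gained that threshold. With at least 3 supporting reads the differences in number were 5.50 for duplications, 3 for those touching the NCR or tRNA-Pro and 2.50 for those elsewhere; at or above the largest floor they were 4.50, 1.5 and 3, and -0.500 for deletions. Duplication reads per 10000 went from 65.1 to 36.5 and 31.4 in these settings, and summed duplication heteroplasmy from 0.695% to 0.358% and 0.336%, that touching the NCR or tRNA-Pro from 0.322% to 0.191% and 0.131%. Fewer entries enter both settings by construction. With the whole segment inside the NCR as the definition, the differences in number were 3.50 inside and 14.5 elsewhere. The difference in summed heteroplasmy elsewhere then went from 0.3731% to 0.5735%.

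Leaving out each mouse gave differences of -2.50 to 0.500 for deletions, 5 to 14 for duplications elsewhere, -0.0977% to -0.0224% for summed deletion heteroplasmy (-0.0600% with all mice), 33.3 to 71.3 bp for median duplication size (52.3 bp), -2.50 to 1 bp for the median repeat and -1900 to 1507 reads for median depth. Deletions turned to 0.500 without the male Mgme1-/- brain, the median repeat to 1 bp and 0.250 bp without the male Mgme1+/+ and male Mgme1-/- brain, and median depth to 78.5 and 1507 reads likewise. With repeats taken from the reference, the median repeat differed by 0.250 bp. The cause was not tested. The depth ratio differed by -0.381, by -0.552 against all events between OL and tRNA-Pro, and by -0.249 between the extreme events of each library; these were chosen after seeing the data.

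Pairs of the same sex (replicate block) give the same mean differences, 18 for duplications, by construction, since each pair holds 1 library per genotype. The differences in median size and repeat had no value with 3 reads or at the largest floor, where no Mgme1+/+ duplication was left. Depth is known only at listed events, and entries of 2 reads lie near the limit of listing.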
